A study of Mus musculus with 6 samples.

Results

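Nr6a1, Trim71, Lin28a, Lin28b, Hic2, Prtg, Arid3a, Arid3b, Hmga1 and Hmga2 are genes of early development that are known as partners or targets of the microRNA let-7. Their messenger RNA was followed here through every probe set that the platform annotation ties to exactly 1 of the 10 symbols, whatever its level. By that rule 23 of 45037 probe sets were taken, for 9 of the 10 genes. Hmga1 had no such probe set, so its messenger RNA was not analysed here and only its promoters were searched. The arrays came from sarcoma cells of the mouse (strain C57BL6/J) grown to confluence in DMEM with serum, 3 with 1 intact copy of Dicer1 (Dicer heterozygous) and 3 with none (Dicer null). RNA of each was hybridised to 1 Affymetrix array. The labels do not give the part of Dicer1 that was removed, how it was removed or how the tumours arose. They number the replicates but do not tell whether these are separate lines or cultures, so the spread behind each p may be technical.

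Dicer cleaves the precursor hairpins of microRNAs, and a cell without it makes almost no mature microRNA. In the heterochronic pathway, first found as a timer of larval stages in worms, Lin28 proteins bind let-7 precursors and keep them from maturing. Mature let-7, abundant in adult tissue, pairs through its seed with sites in messenger RNAs such as those of Lin28, Trim71 and Hmga2 and lowers their level. The title of the series names let-7, Nr6a1 and a mid-gestation programme. The comparison of Dicer null with Dicer heterozygous cells asks which of these transcripts were higher where microRNAs could not be made.

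The mature let-7 sequences are shown because the family is defined by its seed, bases 2 to 8, which is given in capitals. Sequences are from RefSeq (GRCm38.p6), 5′ to 3′, and the arrays did not measure them.
mmu-let-7a-5p: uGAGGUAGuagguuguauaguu
mmu-let-7b-5p: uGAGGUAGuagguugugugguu
mmu-let-7d-5p: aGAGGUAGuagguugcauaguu
mmu-let-7e-5p: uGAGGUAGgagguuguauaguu
mmu-let-7g-5p: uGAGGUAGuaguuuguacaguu
mmu-let-7i-5p: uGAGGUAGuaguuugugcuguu
mmu-miR-98-5p: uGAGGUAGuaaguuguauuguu
mmu-miR-125b-5p: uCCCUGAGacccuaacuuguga

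Only microRNAs named let-7, miR-98 or miR-125 were taken, and other microRNAs were not searched for these seeds. Among those taken, the seed GAGGUAG was shared by 10 mature microRNAs from 12 loci. A fully complementary site in a messenger RNA reads CUACCUC. Outside the seed let-7i-5p differed from let-7a-5p at 4 positions, and let-7b-5p, let-7d-5p, let-7g-5p and miR-98-5p each differed at 2. miR-125b-5p, shown for contrast, is the mouse relative of lin-4, the other microRNA of the worm pathway. Its seed CCCUGAG was shared by the 2 mature microRNAs taken under that name, miR-125a-5p and miR-125b-5p.

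Of the 10 genes, Nr6a1, Trim71, Hic2, Prtg, Arid3a and Arid3b were higher in Dicer null cells, by at least 3-fold in the brightest probe set of each. Only Nr6a1 and Arid3a kept their calls there without any 1 array, and Arid3a was tested only because its null values were high. With ordinary t statistics none of these genes was called. Hmga2 was abundant in both groups, with log2 values near 12, and did not pass the test. Lin28a and Lin28b lay at background in both groups. No probe set of these genes was called lower. In bulk samples, a different share of expressing cells and a different amount of RNA per cell cannot be told apart.

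Values are the authors' log2 GCRMA values, on which a step of 1 is a doubling of signal, and a difference is null minus heterozygous. A probe set was tested where its mean over the 6 arrays was at least 3, and called where limma's adjusted p was under 0.05. That minimum was passed by 16 of the 23, and 11 of these were called higher and 0 lower (15 higher and 0 lower at an unadjusted p under 0.05, where 12.2% of all tested probe sets were higher). Among all 24385 tested probe sets 1.62% were called higher and 1.48% lower. Counted by gene, each through its brightest tested probe set, 6 of the 7 tested genes were called higher, against 1.45% of 11425 genes. Of the 16, 3 passed the minimum only through the null arrays (2 of Nr6a1 and the one of Arid3a) and so had to differ. Without any minimum, 9 of the 23 were called higher, against 0.737% of all 45037. In 18 of the 23 the null values all lay above the heterozygous ones, which held for 12.7% of all probe sets. Probe sets of 1 gene share a target and are not independent. The members were chosen with earlier results of these data known, so these shares are a description and not a test.

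**Figure D1:**
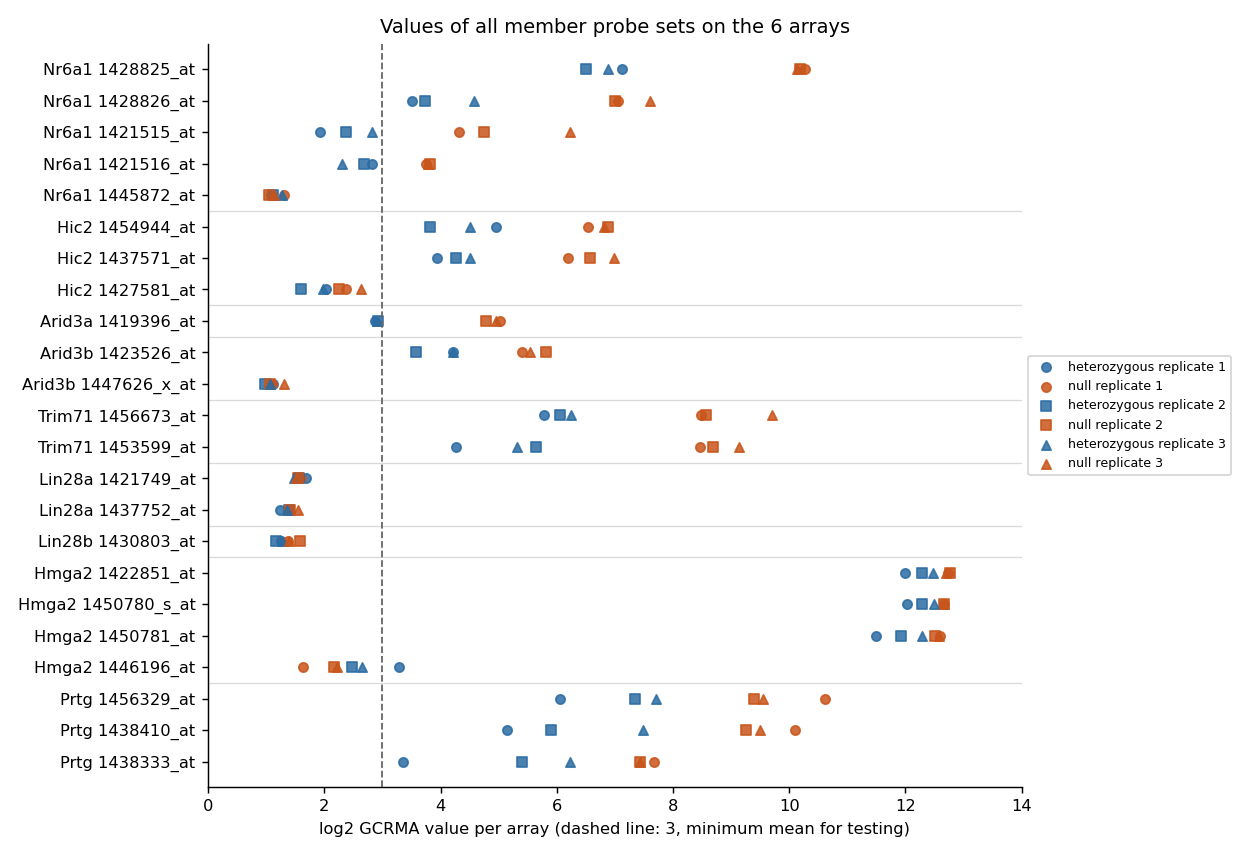
Log2 GCRMA value (x axis) of each of the 23 probe sets (rows, by gene) on each array, heterozygous in blue and null in orange, with the replicate as the symbol and the tested minimum of 3 as a dashed line. Nr6a1, Hic2, Arid3a, Arid3b, Trim71 and Prtg have probe sets whose orange points lie well to the right of the blue ones, 3 of the 4 Hmga2 probe sets sit near 12 in both groups, and Lin28a and Lin28b stay under 2.

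Nr6a1, also called germ cell nuclear factor, is an orphan nuclear receptor of the embryo and the germ line. Its brightest probe set, 1428825_at, read 7.12, 6.50 and 6.88 in heterozygous replicates 1 to 3 and 10.28, 10.19 and 10.14 in the null ones. The groups were 3.02 apart at their closest, and the null arrays varied less than the heterozygous ones. The means were 6.83 ± 0.31 and 10.20 ± 0.07 (SD, n = 3), a 10.3-fold rise (log2 difference 3.37, SE 0.20, 95% interval 2.88 to 3.86, limma adjusted p = 0.00647). By unadjusted p this probe set stood at rank 8 of 24385, and by size of the rise at rank 77. It stayed called without any 1 array, with adjusted p between 0.00573 and 0.0384 and differences of 3.20 to 3.51.

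Of the other Nr6a1 probe sets, 3 read higher on every null array than on any heterozygous one, and 1 lay at background with overlapping groups. In 1428826_at the heterozygous arrays read 3.50, 3.73 and 4.58 and the null arrays 7.06, 7.01 and 7.60, a 9.76-fold rise (difference 3.29, SE 0.33, limma adjusted p = 0.0161). That call was lost without heterozygous replicate 2 (0.0569), null replicate 2 (0.0684) or null replicate 3 (0.0634). In 1421516_at the values were 2.82, 2.68 and 2.30 against 3.75, 3.81 and 3.79. There the heterozygous arrays lay under 3 and the minimum was passed only through the null arrays, so the probe set had to differ. The rise was called as at least 1.72-fold (limma adjusted p = 0.0362). This smaller call was lost without heterozygous replicate 2 or any 1 null array (0.101 to 0.136). Such a fold is a bound, taken from the null mean against a log2 value of 3 because the heterozygous mean was lower. In 1421515_at the values were 1.93, 2.37 and 2.82 against 4.31, 4.74 and 6.22, at least 4.26-fold apart, and the adjusted p of 0.0526 in limma did not pass. Null replicate 3 was well above the other null arrays there. The fifth, 1445872_at, read 1.05 to 1.31 on all 6 arrays. With values below 3 set to 3, the differences of the dimmer pair were 2.09 for 1421515_at and 0.78 for 1421516_at. Which part of the transcript each one reads was not examined.

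The gene table gives 2 start sites for Nr6a1 on the minus strand of chromosome 2. Because the receptor is known to bind repeats of AGGTCA, the 250 bases upstream of each member's starts were searched for that motif on both strands (AGGTCA or TGACCT). Of 32851 promoters in the table, 14% held it at least once and 1.36% at least 2 times. Among 12 promoters of 9 members (none was given for Arid3a) it was found in 1, upstream of the inner Nr6a1 start (GRCm38.p6, chr2:38784516-38784765, minus strand), 91 and 45 bases before it. The 2 windows of Hmga1 overlapped each other. The 12-base direct repeat AGGTCAAGGTCA, searched on both strands, was in none of the 12 and in 2 of the 32851. The window is shown with the matches in capitals, as a description of the letters only.
Nr6a1 inner promoter: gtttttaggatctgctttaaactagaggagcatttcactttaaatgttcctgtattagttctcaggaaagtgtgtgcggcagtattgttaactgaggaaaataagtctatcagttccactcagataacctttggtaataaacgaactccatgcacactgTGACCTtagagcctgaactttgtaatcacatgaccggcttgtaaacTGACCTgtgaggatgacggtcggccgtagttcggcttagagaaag

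Other transcription factors rose. Hic2, a zinc finger repressor of transcription, read 4.96, 3.82 and 4.51 in heterozygous and 6.53, 6.88 and 6.82 in null arrays in its brightest probe set, 1454944_at. All null values exceeded all heterozygous ones by at least 1.57, and the rise was 4.97-fold (4.43 ± 0.57 to 6.74 ± 0.19, SD, n = 3; limma adjusted p = 0.0256). In 1437571_at the values were 3.94, 4.26 and 4.51 against 6.20, 6.58 and 6.98, and the rise was 5.10-fold (limma adjusted p = 0.0182). Both probe sets thus gave nearly the same difference, 2.31 (SE 0.31) and 2.35 (SE 0.26). The brighter one was not called without heterozygous replicate 2 (0.0561) or null replicates 1, 2 or 3 (0.0658, 0.101 and 0.102). The other was not called without heterozygous replicate 2 (0.0637), null replicate 2 (0.0824) or null replicate 3 (0.0697). The dimmest, 1427581_at, stayed under the minimum at 1.59 to 2.63, although its null values too lay above the heterozygous ones.

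Arid3a and Arid3b belong to 1 family of DNA-binding proteins with an AT-rich interaction domain. Arid3a, with a single probe set (1419396_at), read 2.88, 2.92 and 2.91 in the heterozygous arrays, just under the tested minimum, and 5.02, 4.78 and 4.95 in the null arrays. Of the called members it had the smallest spread among heterozygous arrays (SD 0.02), and the rise was at least 3.78-fold (difference 2.01, SE 0.15, limma adjusted p = 0.00785). It kept its call without any 1 array (0.0129 to 0.0463). In all these fits it had passed the minimum only through the null arrays and so had to differ. Fitted without a minimum, its limma adjusted p was 0.00835.

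Arid3b read 4.21, 3.58 and 4.21 against 5.41, 5.81 and 5.54 in 1423526_at. The groups did not overlap, and the rise of 3.00-fold (difference 1.59, SE 0.24, n = 3 per group, limma adjusted p = 0.0318) was the smallest among the brightest probe sets of the 6 called genes. That call held without heterozygous replicate 3 (0.0391) but not without heterozygous replicates 1 or 2 (0.0503 and 0.0745) or null replicates 1, 2 or 3 (0.0785, 0.11 and 0.12). Its other probe set, 1447626_x_at, read 0.98 to 1.31 with overlapping groups.

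Among the RNA-binding members only Trim71 was expressed above background. Trim71, the mammalian relative of worm lin-41, is a ubiquitin ligase that also binds and represses messenger RNAs. Its brightest probe set, 1456673_at, read 5.78, 6.05 and 6.25 in heterozygous and 8.48, 8.57 and 9.70 in null arrays. The rise was 7.41-fold (6.03 ± 0.24 to 8.92 ± 0.68, SD, n = 3; difference 2.89, SE 0.36, limma adjusted p = 0.0211). Null replicate 3 was the highest, and without it the fold was 5.65. In 1453599_at the values were 4.26, 5.64 and 5.31 against 8.47, 8.68 and 9.13, a 12.9-fold rise (difference 3.69, SE 0.39, limma adjusted p = 0.0169) that was the largest log2 difference of any member probe set. Here heterozygous replicate 1 was the low one, and without it the fold was 9.75. The first probe set was not called without heterozygous replicate 2 (0.0733) or null replicate 2 (0.0807). The second was not called without null replicates 2 or 3 (0.0776 and 0.0728).

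Lin28a and Lin28b, the proteins that block let-7 maturation and are let-7 targets themselves, showed no signal above background in either group. Lin28a read 1.48 to 1.68 in heterozygous and 1.51 to 1.59 in null arrays in 1421749_at. In 1437752_at it read 1.24 to 1.39 against 1.38 to 1.55, and the groups overlapped in both probe sets. Lin28b read 1.26, 1.16 and 1.27 against 1.37, 1.58 and 1.39 in its only probe set, 1430803_at. The null values all lay above the heterozygous ones there, by 0.10 at the closest. For scale, 81 probe sets of olfactory, vomeronasal and trace amine receptors, genes these cells are not known to use, had a median mean of 1.46 with a 95th percentile of 2.46, and in 5 of them the null values also all lay above. Fitted without a minimum, the 3 Lin28 probe sets had adjusted p values of 0.382 to 0.93 in limma. A signal at background sets only a bound, so a low level of either gene was not detectable on these arrays.

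Hmga2 is a chromatin protein whose AT-hooks bend DNA, and it is a classic let-7 target. In 1422851_at it read 11.99, 12.28 and 12.47 in heterozygous and 12.74, 12.76 and 12.69 in null arrays. The null arrays were higher by at least 0.22, but the difference of 0.48 (SE 0.18, 95% interval 0.05 to 0.92, 1.40-fold) did not pass (limma adjusted p = 0.182). Values in 1450781_at were 11.49, 11.93 and 12.29 against 12.60, 12.51 and 12.58 (difference 0.66, SE 0.23, limma adjusted p = 0.166). In 1450780_s_at they were 12.03, 12.29 and 12.50 against 12.67 on each null array (0.40, SE 0.18, 0.245). The 95% intervals of these 3 probe sets reached at most 1.23, which lay below the lower bounds for the brightest probe sets of Nr6a1, Trim71, Hic2, Arid3a and Prtg; the differences between genes were not themselves tested. No value on any array exceeded 14.18, so Hmga2 was near the top of the scale in both groups, and whether its difference is compressed there was not tested. The dimmest probe set, 1446196_at, read 3.28, 2.48 and 2.64 against 1.64, 2.17 and 2.21, the only one of the 23 with all null values below, and its mean was under the minimum.

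Prtg, protogenin, is a membrane protein of the immunoglobulin superfamily found in the early embryo, and it varied most among heterozygous arrays. The brightest of its 3 probe sets, 1456329_at, read 6.06, 7.34 and 7.70 against 10.62, 9.40 and 9.55. The rise was 7.08-fold (7.03 ± 0.86 to 9.86 ± 0.67, SD, n = 3; difference 2.82, SE 0.52), with a limma adjusted p of 0.048. In 1438410_at the values were 5.15, 5.90 and 7.48 against 10.10, 9.25 and 9.49, a 10.8-fold rise (difference 3.44, SE 0.60, limma adjusted p = 0.0442). In 1438333_at they were 3.35, 5.40 and 6.22 against 7.68, 7.43 and 7.44, and the difference of 2.53 (SE 0.70) did not pass (0.104). Heterozygous replicate 1 was lowest and replicate 3 highest in each, and no null value fell among the heterozygous ones.

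Both calls of Prtg depended on the arrays and settings. They held without heterozygous replicate 3 (0.0461 for 1456329_at and 0.0135 for 1438410_at), where the folds were 8.92 and 17.0. Without any of the other 5 arrays neither was called, with adjusted p from 0.0621 to 0.142 for the first and from 0.064 to 0.143 for the second. Without a minimum they gave 0.0681 and 0.062. For 1438333_at the fold of 5.76 became 3.26 without heterozygous replicate 1 and 8.83 without heterozygous replicate 3.

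**Figure D2:**
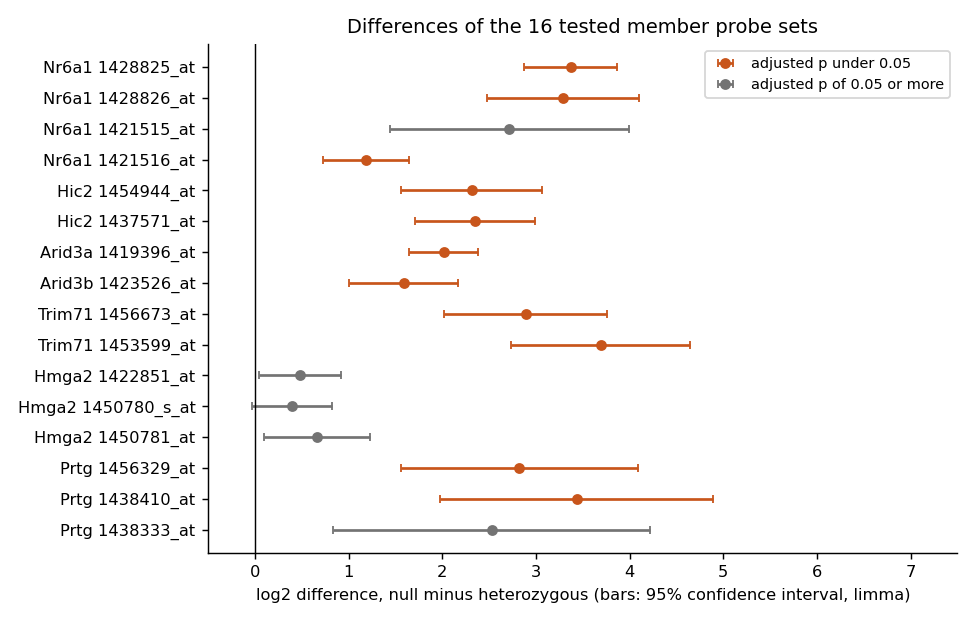
Log2 difference, null minus heterozygous, of the 16 tested probe sets (points) with the 95% confidence interval from limma (bars), in orange where the adjusted p was under 0.05 and in grey elsewhere. The 11 orange points lie between 1.18 and 3.69 on the deposited scale, on which Nr6a1 1421515_at, Nr6a1 1421516_at and Arid3a start below 3, and the 3 Hmga2 points lie between 0.40 and 0.66.

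**Figure D3:**
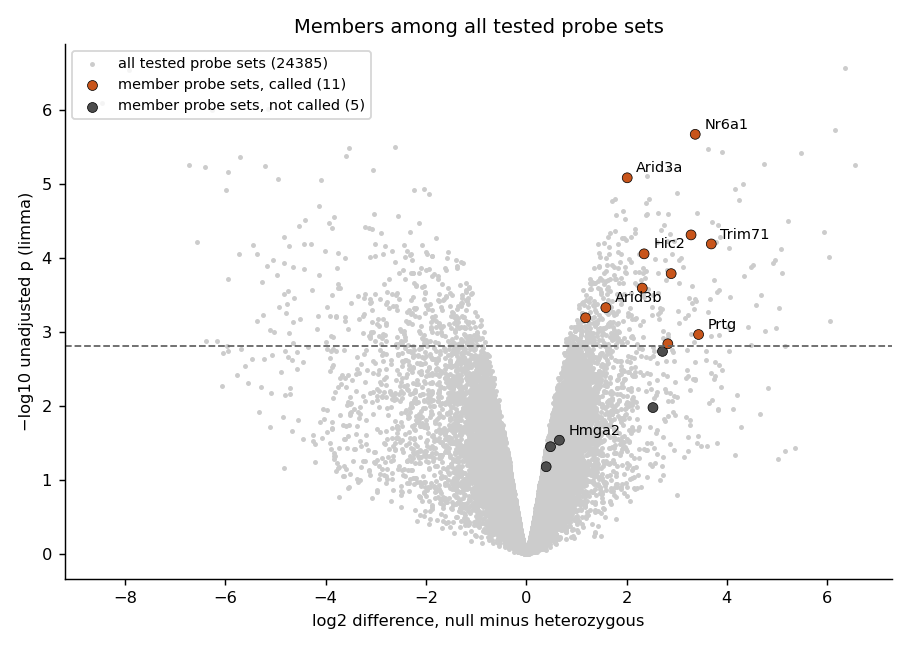
Log2 difference (x axis) against −log10 of the unadjusted limma p (y axis) for all 24385 tested probe sets in grey, with the 16 probe sets of the members as larger points and the level of the adjusted threshold as a dashed line. The 11 called ones lie above the line on the right, among 394 probe sets called higher, and the 5 others, including those of Hmga2, lie below it.

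Over the 16 tested probe sets the median difference was 2.44, against 0.03 over all tested probe sets; 3 of the 16 had passed only through the null arrays. Heterozygous replicate 1 had the lowest of the 3 heterozygous values in 12 of the 16, replicate 2 in 3 and replicate 3 in 1. Null arrays were closer together than heterozygous ones in 12 of the 16, which held for 65.2% of all tested probe sets. Counted by the brightest tested probe set of each gene, leaving out 1 array left 2 to 6 of the 6 genes called. Arid3a and Nr6a1 alone remained without heterozygous replicate 2 or null replicate 2, and with Trim71 without null replicate 1 or null replicate 3. Without heterozygous replicate 1 Arid3a, Hic2, Nr6a1 and Trim71 were called, and without heterozygous replicate 3 all 6. A dimmer probe set kept its call for Trim71 without heterozygous replicate 2 (limma adjusted p = 0.0417). The same held for Hic2 without null replicate 1 (limma adjusted p = 0.039).

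**Figure D4:**
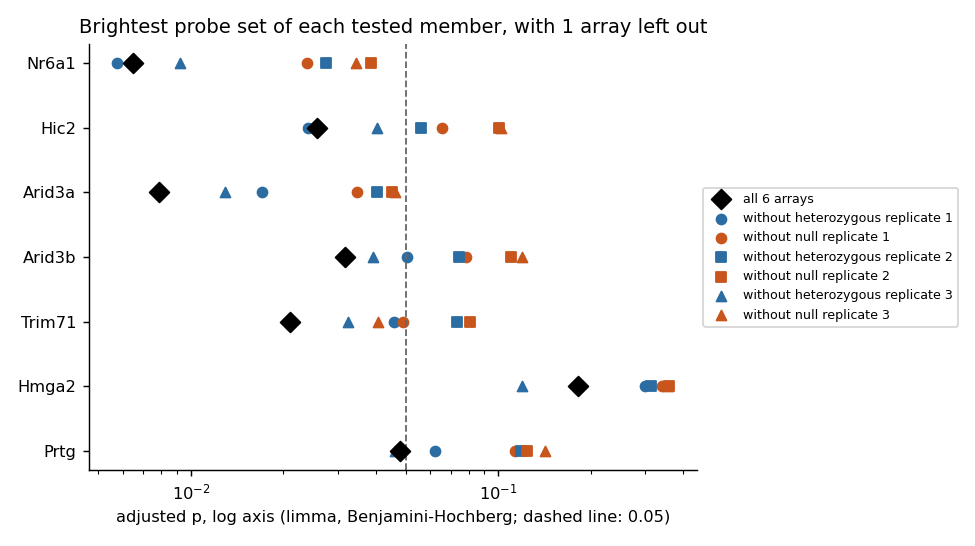
Adjusted p from limma on a log axis (x) for the brightest probe set of each tested member (rows), with all 6 arrays (black diamonds) and with 1 array left out (blue for heterozygous, orange for null, symbol by replicate). The points of Nr6a1 and Arid3a all lie left of the dashed line at 0.05, those of Hmga2 all lie right of it, and those of the other genes fall on both sides.

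Named genes, leaving out Riken, predicted and clone-numbered symbols, were ranked by how closely their 6 values resembled those of a member. The measure was the root mean square distance between profiles, each centred on its own mean. A gene with several tested probe sets was placed by its nearest one. The ranking describes 6 arrays in 2 groups, so a like difference between the groups makes up most of the likeness. Distances use the deposited values, also where heterozygous values lay under 3. Closest to the brightest probe set of Nr6a1 were Igf2bp1 (distance 0.19 in log2 units, Pearson r 0.997), an RNA-binding protein of embryos, then Klhl22 (0.33, r 0.984), the axon guidance factor Sema3e (0.38, r 0.976), Slfn2 (0.40, r 0.987) and the imprinted noncoding RNA Kcnq1ot1 (0.41, r 0.971). Igf2bp1 in that probe set (1459825_x_at) read 2.62, 2.04 and 2.58 against 6.13, 6.25 and 5.76. Klhl22 and Kcnq1ot1 were likewise under 3 in all heterozygous arrays. With values below 3 set to 3, the differences of Igf2bp1, Klhl22 and Kcnq1ot1 were 3.05, 1.99 and 1.85, against 3.63, 3.01 and 3.09 as deposited and 3.37 for Nr6a1, so the order among these neighbours rests on values near background.

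Closest to the brightest probe set of Trim71 were Oip5os1 (0.12, r 0.997), a long noncoding RNA, and Brwd3 (0.20, r 0.992). Probe sets of Nr6a1 (1421515_at, 0.25, r 0.986) and Hic2 (1437571_at, 0.34, r 0.991) stood at the third and the fifth place. Between them was Rgmb (0.31, r 0.978), a coreceptor of bone morphogenetic proteins. That Nr6a1 probe set is not the brightest one and was not called (limma adjusted p = 0.0526). Its heterozygous values all lay under 3, and it passed the minimum only through the null arrays. Null replicate 3 was the highest array in Trim71 and in each of the 5 profiles named here. Oip5os1, for instance, read 5.06, 5.29 and 5.57 in heterozygous and 7.94, 7.86 and 8.74 in null arrays.

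Other genes of the pathway were taken from lists written from general knowledge, but with earlier results of these data known. The counts below therefore describe the lists and test nothing about them. Among 41 tested let-7 targets outside the 10 genes, 4 were called higher and 0 lower, against 1.45% of all tested genes called higher. The median difference was 0.39, against -0.01 over all tested genes. At an unadjusted p under 0.05, 16 were higher and 1 lower, where 10.5% of all tested genes were higher and 13.5% lower. Igf2bp1 rose by 5.10 (SE 0.63) in its brightest probe set (4.45 without heterozygous replicate 2 and 5.77 without replicate 3), with adjusted p of 0.0211 in limma. Without null replicate 1, 2 or 3 it was not called (0.0641, 0.093 and 0.0871). Map3k1, a kinase of stress signalling, rose by 2.07 (SE 0.31) and was called without heterozygous replicate 1 (0.0317) but not without any of the other 5 arrays (0.0502 to 0.102). Igf2bp3, another RNA-binding protein of embryos, rose by 2.09 (SE 0.33) and lost its call without each of the 6 arrays in turn (0.0502 to 0.13). The fourth was Dna2, a nuclease and helicase, which rose by 2.84 (SE 0.49, limma adjusted p = 0.0436). Its values in the fits without 1 array are not given here.

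None of 22 genes that make, trim, load or degrade let-7 or act with it, the Tnrc6 genes among them, was called in limma. At an unadjusted p under 0.05, 4 were higher and 1 lower, beside the shares of all tested genes just given. The median difference was 0.06. Dicer1 itself read 8.60, 8.19 and 8.17 in heterozygous and 8.56, 8.40 and 8.42 in null arrays in its brightest probe set, and the groups overlapped. A probe set outside the removed part checks nothing about the labels, and that part is not given.

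Genes known to be acted on by the members showed no call either. Of 14 genes that Nr6a1 is reported to repress, 8 lay under the minimum, and of the 6 tested 0 were called in limma. The only 2 at an unadjusted p under 0.05 were higher, where 10.5% of all tested genes were higher and 13.5% lower. Pou5f1, the pluripotency factor that Nr6a1 silences in the embryo, read 1.37 to 1.74 on all 6 arrays. Cyp26a1, which degrades retinoic acid and was picked out after its values were seen, read 2.64, 2.49 and 2.53 against 3.73, 4.07 and 3.36. Its groups did not overlap, and its adjusted p in limma was 0.05001, just above the threshold. With a heterozygous mean of 2.55 it passed the minimum only through the null arrays and so had to differ.

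All 7 genes that Trim71 is reported to repress were tested and 0 were called (0 at an unadjusted p under 0.05; median difference -0.12). The cell cycle inhibitor Cdkn1a was 6.58 ± 1.12 against 5.65 ± 0.46 (SD, n = 3), with overlapping groups. Of 6 genes linked to Hmga proteins 0 were called (2 at an unadjusted p under 0.05, both lower). Of 17 tested mid-gestation and oncofetal genes outside the 10, 0 were called (4 at an unadjusted p under 0.05, all higher), and the median difference was 0.01. That list left out Igf2bp1 and Igf2bp3, RNA-binding proteins of embryos that were called higher and were counted among the let-7 targets. Beside the 3 lists of this paragraph, 10.5% of all tested genes were higher and 13.5% lower at that p.

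The labelled cell type was checked against 13 mesenchymal markers, of which 12 were tested and 0 called in limma. At an unadjusted p under 0.05, 1 was higher and 3 were lower, where 10.5% of all tested genes were higher and 13.5% lower. Vim, the intermediate filament of such cells, read 13.71 to 13.84. Picked out after their values were seen, the 3 lower ones were the calcium-binding protein S100a4 (12.33, 12.81 and 13.03 against 11.36, 10.97 and 11.73) and the growth factor receptors Pdgfra (11.44, 12.08 and 12.26 against 10.76, 9.74 and 10.40) and Pdgfrb (10.69, 11.55 and 11.36 against 10.80, 10.20 and 9.50). The groups did not overlap in S100a4 and Pdgfra, whose limma adjusted p values were 0.057 and 0.0593. The higher one was the matrix protein Lum (1.95, 1.75 and 2.79 against 4.83, 6.73 and 3.39), which passed the minimum only through the null arrays. Summed on the linear scale, the mesenchymal markers came to 54320 to 72238 in heterozygous and 46857 to 57076 in null arrays, which overlap, and their part in the members' differences was not tested. All 6 endothelial markers lay under the minimum. So did 5 of 7 leukocyte, 5 of 8 epithelial and 8 of 9 germ cell and pluripotency markers. Among leukocyte markers Ptprc read 1.55 to 1.62, but Cd14 read 6.71 to 7.45 and Cd68 4.43 to 7.13. The epithelial marker Krt19 read 4.75 to 8.92. Groups overlapped in Cd14, Cd68 and Krt19. The germ cell marker Ddx4 was under the minimum and not tested. Its null values all lay above the heterozygous ones, with means of 3.63 and 2.18. Summed in the same way, the germ cell and pluripotency markers came to 37.9 to 49.4 in heterozygous and 44.7 to 54.3 in null arrays, which overlap. Leukocyte markers summed to 187 to 311 against 142 to 250, and epithelial ones to 59.2 to 1044 against 125 to 398, with Krt18 at 9.02 in heterozygous replicate 1 and at most 2.68 elsewhere.

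Proliferation genes read higher in the null arrays as well. All 23 of 23 tested had a positive difference, with a median of 0.61, and 0 were called in limma. At an unadjusted p under 0.05, 5 were higher and 0 lower, where 10.5% of all tested genes were higher and 13.5% lower. The median of the 23 proliferation genes, each relative to its own mean, was 0.05, 0.04 and -0.81 in heterozygous replicates 1 to 3 and 0.22, 0.50 and 0.14 in the null ones. By this median every null array lay above every heterozygous one, with heterozygous replicate 3 far the lowest. In single genes such as Top2a, Cdk1 and Mki67 the groups overlapped, while in others such as Pcna they did not. What part the shift of proliferation genes had in the members' differences was not tested.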

How the data were processed

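Each of the 6 samples, 3 per genotype in the titles, was measured on 1 array. The values analysed are the authors' own log2 signals, as deposited, made with GCRMA 2.20.0 under R 2.11.1 according to the submitters' processing notes. GCRMA adjusts background by probe sequence and normalizes quantiles; its settings are not given in those notes. The log2 scale is inferred from the range, 0.40 to 14.18. Dim probe sets are pulled to low values, so differences starting below 3 depend on that background model. Array medians were 3.32 to 3.43.

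Names came from the platform annotation (34945 probe sets with 1 symbol, 932 with several, 9160 with none). The fit was limma 3.58.1 in R 4.3.3 (lmFit, eBayes, no block, two-sided) over all 24385 probe sets with a mean of at least 3, with Benjamini-Hochberg adjustment over all of them at 0.05. Fits without 1 array kept those probe sets. The script was tested on simulated data. Members, lists and tests were chosen with earlier results of these data known. Named genes were all members, up to 3 called genes per list and the 5 nearest profiles of Nr6a1 and Trim71; others are named as small counts or examples seen in the data. Figures used matplotlib 3.10.9.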

Additional observations from a re-analysis of the deposited data

How the results depend on the processing

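The direction of all 16 tested member probe sets stayed the same in every alternative run on them. The count of 756 called probe sets, 11 of members, and of 6 called member genes changed most with the variance model and the arrays used. Member genes are counted here by their brightest tested probe set unless stated otherwise. With ordinary t statistics 0 probe sets, 0 member probe sets and 0 member genes were called (4873, 16 and 7 at an unadjusted p under 0.05); differences are unaffected by that setting. Array weights gave 6875 called probe sets by limma's default method and 2949 gene by gene, with 16 and 14 of members, Hmga2 1450781_at among both. With the replicate number as a block 116 probe sets, 5 member probe sets and 2 member genes (Arid3a and Nr6a1) were called. The correlation of deviations between arrays of 1 number was -0.06, 0.11 and 0.24 for numbers 1 to 3, so the numbers were not taken to pair the samples. Without 1 array the counts were 45 to 857, 2 to 11 and 2 to 6. The other alternatives (minimum of 2, 4 or none, trend, robust, quantiles again, centring, values below 3 set to 3) gave 620 to 954 probe sets, 9 to 12 of members and 5 or 6 member genes, Prtg or, at a minimum of 4, Arid3a being the one lost. Arid3a and the 2 dimmer tested Nr6a1 probe sets were then not tested and gave no value. Choosing each gene's probe set by lowest p, or averaging them, left 6 genes called. Beyond what the construction of a setting shows, the cause was not tested. The number of arrays, 3 per group, and signal near background limit what could be seen.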
